A study of Mus musculus with 24 samples.

Results

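Retinas taken 2 h after a hypoxic period were compared with retinas of normoxic mice taken at the same time point. The comparison used 6 of the 24 arrays of the study, 3 of hypoxic retinas and 3 of normoxic retinas, chosen by the sample titles, and all 45037 probe sets of the array other than controls. The mice were BALB/c, an albino strain, and all carried the light-sensitive leucine variant of Rpe65 on both alleles. Hypoxic mice breathed 6% O2 for 6 h and then, by the treatment notes, normal room air in darkness for 2 h. The same notes go on to a bright light exposure after reoxygenation. Retinas for RNA are said only to have been isolated at the stated times after hypoxia, so they were taken here as not exposed to that light, which the sources do not state outright. Normoxic controls were handled in parallel and never breathed reduced oxygen. RNA on an array came from a pool of 3 retinas, each from another mouse. A group thus had 3 independent pools, numbered here by the replicate numbers of the titles, and single animals cannot be told apart. Whole retina was used, with all its cell types and without sorting, and the age and sex of the mice are not given in the sources used here. Sample descriptions that read as 2 h of hypoxia were taken as 2 h of reoxygenation, following the series design and the methods. The other 18 arrays, of 0, 4 and 16 h, served to estimate the spread, and those of 0 h to ask whether the response had changed since the end of hypoxia.

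Hypoxia stabilizes the alpha subunit of the transcription factor HIF-1, which switches on genes of glucose uptake, glycolysis, mitochondrial turnover and blood vessel growth. When oxygen returns, prolyl hydroxylases again mark HIF-1 alpha for destruction, and several of its targets, the prolyl hydroxylase gene Egln1 among them, act back on the pathway. Low oxygen also slows processes that cost much energy, such as the making of ribosomes and of protein. In the retina the photoreceptors are the largest consumers of oxygen, and a short hypoxic period before bright light is known to protect them for some hours.

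Hypoxic and normoxic retinas still differed widely at 2 h, mostly by small amounts. A probe set was tested when its mean log2 signal in hypoxic or normoxic pools reached 6.69, the minimum between the peaks of the signal density at 3.81 and 7.90. Of the 18587 probe sets tested, limma called 3081 changed at an adjusted p under 0.05 (16.6%), 1709 of them higher (9.19%) and 1372 lower (7.38%) in hypoxic retinas. Only 36 of the higher and 18 of the lower ones changed by over 2-fold, and 75.7% of the called probe sets changed by less than 0.5 on the log2 scale. With 1 probe set per gene, 10125 genes were tested, of which 1039 were higher (10.3%) and 835 lower (8.25%), with a median log2 change of 0.01 over all genes tested. The pools of both groups did not overlap in 34.8% of the probe sets tested, called or not. This held for 1669 of the 1709 higher and 1309 of the 1372 lower probe sets. For genes picked as the largest rises and falls, such separation was a condition of the choice and is no separate result. The medians of the 6 arrays lay between 5.79 and 5.82. Pools of different groups were on average 60.5 apart (Euclidean distance over all probe sets), against 49.8 within the hypoxic and 50.0 within the normoxic group. The number of called probe sets was 1628 without hypoxic pool 1, 1917 without normoxic pool 3 and 1325 from the 6 arrays alone.

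The largest rise was that of Obox6, a homeobox gene known from mouse oocytes. Its log2 signal was 8.96, 7.82 and 8.34 in the hypoxic pools, against 5.12, 5.70 and 5.69 in the normoxic pools. All hypoxic pools lay above all normoxic pools, whose mean was below the signal threshold, so the log2 change of 2.87 (SE 0.24, limma adjusted p = 1.51e-07) is a difference of signals and no exact ratio of transcript. Obox6 was the 1 of 17 oocyte-type genes on the array that passed the signal filter, and its effect was smaller than at 0 h, when the log2 change was 4.36 (adjusted p of the difference 0.00843).

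The metallothionein genes Mt1 and Mt2 were among the 5 largest rises. Metallothioneins are small cysteine-rich proteins that bind zinc and copper and scavenge radicals, and their genes are switched on by metals, glucocorticoids and stress. Mt1 had log2 signals of 12.60, 12.61 and 12.61 in hypoxic pools, against 10.74, 10.49 and 10.07 in normoxic pools, a 4.51-fold difference (log2 change 2.17, SE 0.18, adjusted p = 1.41e-07). Mt2 had 12.22, 11.71 and 11.82 in hypoxic pools, against 10.15, 9.63 and 9.20 in normoxic pools (log2 change 2.26, SE 0.29, adjusted p = 3.62e-05). The hypoxic pools of both genes lay wholly above the normoxic ones, and those of Mt1 differed from each other by far less than the normoxic pools did. Neither effect was shown to differ from that at 0 h, when the log2 changes were 2.21 for Mt1 and 2.75 for Mt2 (adjusted p of the difference 0.958 and 0.554). The probe set of Mt1 is of a type (_s_at) whose probes can match several transcripts.

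The 250 bases before the annotated starts of Mt1 and Mt2 are shown because these genes rose together. They lie side by side on chromosome 8, at chr8:94178839-94179088 and chr8:94172368-94172617 on the plus strand (RefSeq, GRCm38.p6), and capitals mark TGCACNC or TGCGCNC, the core of the metal response element bound by the zinc-sensing factor Mtf1, on either strand.
Mt1: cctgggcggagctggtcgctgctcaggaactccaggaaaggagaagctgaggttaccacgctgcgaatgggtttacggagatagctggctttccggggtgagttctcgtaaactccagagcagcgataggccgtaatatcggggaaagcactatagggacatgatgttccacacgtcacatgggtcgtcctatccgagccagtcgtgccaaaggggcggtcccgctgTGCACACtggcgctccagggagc
Mt2: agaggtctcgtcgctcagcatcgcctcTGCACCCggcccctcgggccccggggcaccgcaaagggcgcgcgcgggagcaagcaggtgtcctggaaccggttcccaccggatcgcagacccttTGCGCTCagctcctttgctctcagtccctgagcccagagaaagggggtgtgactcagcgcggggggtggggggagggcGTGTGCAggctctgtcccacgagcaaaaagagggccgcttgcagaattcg
The core occurred 1 time in this stretch of Mt1 and 3 times in that of Mt2, and in 21.4% of all 32851 promoter stretches of the same length. It occurred in 35.9% of those of the tested genes and in 8 of the 18 tested genes of metallothioneins and zinc transport with an entry (44.4%). Over all genes tested 10.3% were higher and 8.25% lower. Of the 20 tested genes of metallothioneins and zinc transport, 3 were higher and 1 lower (15% and 5%), with a median log2 change of 0.11. The third riser was Mtf1 itself, with 9.00, 8.64 and 8.66 in hypoxic pools, against 8.39, 8.42 and 8.13 in normoxic pools (log2 change 0.45, adjusted p = 0.00642). Its effect was above that at 0 h (-0.12, adjusted p of the difference 0.021), and its call was lost without hypoxic pool 1 (log2 change 0.34, adjusted p = 0.0566) and from the 6 arrays alone. Mt3, a metallothionein of neural tissue named after its values were seen, changed by 0.36 and was not called (adjusted p = 0.0792), though it was without normoxic pool 1 (0.48, adjusted p = 0.0344). The gene that fell was Slc39a10, a zinc importer, with a log2 change of -0.49 (adjusted p = 0.00104).

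Some genes known to be induced by glucocorticoids, the hormones of the stress response, were higher as well. Of 24 tested, 7 were higher and 2 lower (29.2% and 8.33%, beside 10.3% and 8.25% over all genes tested), and 9 had a log2 change below 0. The median log2 change was 0.11 at 2 h and 0.76 at 0 h over the same genes. The number lower was 4 without normoxic pool 1 and 1 without hypoxic pool 2 or normoxic pool 3. Fkbp5, which encodes a co-chaperone of the glucocorticoid receptor, had 10.20, 10.07 and 10.22 in hypoxic pools, against 8.92, 9.02 and 8.82 in normoxic pools (log2 change 1.24, SE 0.12, adjusted p = 5.72e-07). The groups were separated by 1 log2 unit or more. Lcn2, a secreted lipocalin that binds bacterial iron carriers and marks reactive glia, had 7.68, 8.84 and 8.50 in hypoxic pools, against 6.34, 6.26 and 5.92 in normoxic pools (log2 change 2.17, SE 0.36, adjusted p = 0.000444), with the normoxic mean below the threshold. Cebpd, a transcription factor of the acute phase response, had 8.96, 9.16 and 8.55 in hypoxic pools, against 7.92, 7.86 and 7.50 in normoxic pools (log2 change 1.13, adjusted p = 0.0102). The hypoxic pools of both genes lay above the normoxic ones, and the call of Cebpd was lost without normoxic pool 3 (log2 change 1.00, adjusted p = 0.0523). The cell cycle inhibitor gene Cdkn1a (p21) had 8.21, 7.06 and 7.67 in hypoxic pools, against 6.47, 6.41 and 6.00 in normoxic pools. Its log2 change of 1.35 (SE 0.24, adjusted p = 0.000928) was below the 3.29 of 0 h (adjusted p of the difference 0.0011). The normoxic means of Cdkn1a were below the threshold at both time points, so these values too are differences of signals and no exact ratios. The remaining risers were Mt1, Mt2 and Sult1a1, a sulfotransferase named after its values were seen. The 2 genes that fell were Ddit4 and Errfi1, whose values are given further below.

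Further large rises belonged to transport and metabolism. Slc37a4, the glucose-6-phosphate transporter of the endoplasmic reticulum, had 10.24, 10.47 and 10.28 in hypoxic pools, against 9.00, 9.11 and 9.11 in normoxic pools (log2 change 1.26, SE 0.10, adjusted p = 1.41e-07). Mthfd1l, a mitochondrial enzyme of the folate cycle that makes formate, had 8.93, 8.85 and 8.75 in hypoxic pools, against 7.59, 7.43 and 7.67 in normoxic pools (log2 change 1.28, SE 0.14, adjusted p = 6.84e-06). In both genes the spread within a group was small beside the difference. Fabp4, a fatty acid binding protein best known from fat cells, had 7.58, 6.94 and 7.34 in hypoxic pools, against 5.13, 5.29 and 5.70 in normoxic pools (log2 change 1.91, SE 0.24, adjusted p = 2.54e-05), with the normoxic mean below the threshold. Etnppl, which breaks down phosphoethanolamine, and Selenbp1, a selenium-binding protein, had log2 changes of 1.30 and 1.26 (adjusted p = 6.23e-06 and 0.000413). Car14, a carbonic anhydrase of Mueller glia, had 10.85, 11.23 and 11.00 in hypoxic pools, against 10.16, 10.04 and 9.97 in normoxic pools (log2 change 0.97, SE 0.11, adjusted p = 8.97e-06). For none of these genes except Slc37a4 was the effect shown to differ from that at 0 h. Car14 was the only higher one of 14 tested Mueller glia markers, of which 2 were lower. In 8 of the 14 the log2 change was below 0, and their median was -0.05. The number of lower Mueller glia markers was 0 without hypoxic pool 1 or 3 or without normoxic pool 1 or 2.

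Kif4, a motor protein of the mitotic spindle, was also higher. It had 7.40, 7.24 and 7.80 in hypoxic pools, against 5.34, 5.22 and 5.56 in normoxic pools (log2 change 2.10, SE 0.17, adjusted p = 1.41e-07), and its normoxic mean was below the threshold. Over all genes tested 10.3% were higher and 8.25% lower. The list of cell cycle and mitosis genes had 5 of 21 tested genes higher and 1 lower (23.8% and 4.76%). Its median log2 change was 0.06. Its risers were Kif4, Cdkn1a and the replication helicase genes Mcm2, Mcm5 and Mcm4, which changed by 0.45, 0.36 and 0.29 and each lost the call without hypoxic pool 1 or without normoxic pool 1 (adjusted p = 0.0844 and 0.112 for Mcm2 and Mcm5, and 0.0741 for Mcm4). The normoxic mean of Mcm5 was below the threshold. Without normoxic pool 2, 2 genes of the list were higher, and 3 without hypoxic pool 1 or normoxic pool 1. Of 12 tested Id, Hes and HMG box genes, which code for regulators of transcription and proteins of chromatin, 3 were higher (25%) and 0 lower by limma. At an unadjusted p under 0.05 the numbers were 4 and 2. Of the 12, 7 had a log2 change below 0, and the median was -0.04. The risers were Hmgb2, Hmgb3 and Hbp1. Hmgb2, a DNA-bending protein of chromatin, had 10.99, 9.92 and 10.37 in hypoxic pools, against 9.54, 9.08 and 9.20 in normoxic pools (log2 change 1.15, SE 0.18, adjusted p = 0.000308). Hmgb3, of the same family, had 9.59, 9.75 and 9.71 in hypoxic pools, against 9.06, 8.97 and 9.00 in normoxic pools (log2 change 0.67, SE 0.09, adjusted p = 3.82e-05). Hbp1, an HMG box repressor, changed by 0.43 (adjusted p = 0.00456), while another of its probe sets changed by -0.40 (adjusted p = 0.00145). Egr1, an immediate early transcription factor of neurons, had 11.44, 11.54 and 11.60 in hypoxic pools, against 10.77, 9.89 and 9.76 in normoxic pools (log2 change 1.39, SE 0.30, adjusted p = 0.00339). Normoxic replicate 1 was nearer to the hypoxic pools than the other normoxic pools were. Of 18 tested immediate early genes 2 were higher and 0 lower by limma (2 and 1 at an unadjusted p under 0.05). The share higher was 11.1%, near the 10.3% over all genes tested. Besides Egr1, the second was Bdnf, a neurotrophin with a normoxic mean below the threshold, at 0.42. Its call was lost without hypoxic pool 1, without hypoxic pool 2 and without normoxic pool 3 (log2 change 0.27, adjusted p = 0.203).

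The largest falls were smaller than the largest rises and did not belong to 1 function. Ttc14 had 5.87, 4.94 and 6.24 in hypoxic pools, against 6.71, 7.26 and 7.28 in normoxic pools (log2 change -1.40, SE 0.31, adjusted p = 0.00442), with the hypoxic mean below the threshold. Gulo, the last enzyme of vitamin C synthesis, had 7.20, 7.47 and 7.04 in hypoxic pools, against 8.22, 8.38 and 8.50 in normoxic pools (log2 change -1.13, SE 0.11, adjusted p = 9.24e-07). St8sia2, which builds polysialic acid chains on cell adhesion molecules, had 6.68, 7.30 and 6.41 in hypoxic pools, against 8.08, 7.99 and 7.69 in normoxic pools (log2 change -1.13, SE 0.18, adjusted p = 0.000308). The hypoxic pools lay wholly below the normoxic pools in all 3. Gas7, a gene of neurite growth, had 7.38, 7.25 and 7.37 in hypoxic pools, against 8.11, 8.53 and 8.63 in normoxic pools (log2 change -1.09, SE 0.13, adjusted p = 2.26e-05). Vps13a, a lipid transfer protein, had 6.28, 6.05 and 5.95 in hypoxic pools, against 7.04, 7.17 and 7.45 in normoxic pools (log2 change -1.13, SE 0.12, adjusted p = 2.15e-06), again with the hypoxic mean below the threshold. Kdr, the main receptor for vascular endothelial growth factor, which in the retina is also made by neurons and glia, had 8.97, 8.95 and 8.73 in hypoxic pools, against 10.05, 9.93 and 9.64 in normoxic pools (log2 change -0.99, SE 0.13, adjusted p = 4.53e-05). The other endothelial marker that was called, Slco1a4, changed by -0.44. It lost its call without hypoxic pool 1 and without normoxic pool 3 (log2 change -0.38, adjusted p = 0.0594). The other 6 tested endothelial markers were not called. Of the 8 tested, 2 were thus lower (25%, beside 8.25% over all genes tested) and 0 higher by limma. At an unadjusted p under 0.05 the numbers were 2 lower and 1 higher. In 5 of the 8 the log2 change was above 0, and their median was 0.10. Mef2c, a transcription factor of neurons and muscle, had 9.37, 9.57 and 9.33 in hypoxic pools, against 10.05, 10.12 and 9.98 in normoxic pools. Its log2 change of -0.63 (adjusted p = 0.00027) was smaller in size than the -1.33 of 0 h (adjusted p of the difference 0.00258).

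Some heat shock genes, most of them of the cytosol, were lower. These chaperones refold damaged protein and are switched on by the heat shock factor Hsf1. The list also held Serpinh1 of the endoplasmic reticulum and Hspd1 and Hspe1 of the mitochondrion. Of 26 tested, 6 were lower (23.1%, beside 8.25% over all genes tested) and 0 higher by limma (7 and 1 at an unadjusted p under 0.05). The median log2 change was -0.12, 8 of the 26 were above 0, and the number lower stayed between 5 and 6 when 1 array was left out. Hspa1b, an inducible chaperone of the Hsp70 family, had 9.43, 9.56 and 9.44 in hypoxic pools, against 10.52, 10.41 and 10.55 in normoxic pools (log2 change -1.02, SE 0.09, adjusted p = 5.71e-07). Hspa1a, its near-identical neighbour, had 9.10, 9.19 and 9.07 in hypoxic pools, against 9.71, 9.64 and 9.96 in normoxic pools (log2 change -0.65, SE 0.11, adjusted p = 0.000447). The groups did not overlap in either gene, and the fall of Hspa1a was less deep than at 0 h (-1.32, adjusted p of the difference 0.00809). Chordc1, a partner of Hsp90, and Hspa8, the constitutive member of the family, changed by -0.44 and -0.35 (adjusted p = 0.00324 and 0.00852). The remaining 2 were Bag1 with -0.43 (adjusted p = 0.0025) and the collagen chaperone Serpinh1 with -0.46 (adjusted p = 0.0306), whose call was lost without hypoxic pool 1 (adjusted p = 0.189), without hypoxic pool 3, without normoxic pool 1 and without normoxic pool 2.

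The stretches before the starts of Hspa1a and Hspa1b are shown because the pair cannot be fully told apart. They lie at chr17:34972157-34972406 and chr17:34959239-34959488 on the minus strand (RefSeq, GRCm38.p6), and capitals mark the heat shock element GAANNTTC, which reads the same on both strands.
Hspa1a: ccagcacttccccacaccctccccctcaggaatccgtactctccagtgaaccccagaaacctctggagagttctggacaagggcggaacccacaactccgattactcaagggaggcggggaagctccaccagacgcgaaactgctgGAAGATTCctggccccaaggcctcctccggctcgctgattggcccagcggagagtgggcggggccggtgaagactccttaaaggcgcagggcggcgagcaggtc
Hspa1b: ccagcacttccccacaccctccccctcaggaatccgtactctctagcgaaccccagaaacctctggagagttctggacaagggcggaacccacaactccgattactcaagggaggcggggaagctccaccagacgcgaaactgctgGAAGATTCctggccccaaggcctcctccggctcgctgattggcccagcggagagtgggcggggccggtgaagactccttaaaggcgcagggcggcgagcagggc
The pair matched at 247 of 250 bases (98.8%) and carried the element at the same place, with its first base 104 bases before the start. The element occurred in 6.69% of all promoter stretches, in 5.98% of those of the tested genes and in 9 of the 23 tested heat shock genes with an entry. The array probes were not aligned here, and transcripts of such close copies can bind the same probes, so the values of Hspa1a and Hspa1b are uncertain as measures of either gene alone.

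Genes that build ribosomes were higher together. Ribosome biogenesis factors process and modify ribosomal RNA in the nucleolus and assemble the subunits. Of 122 tested, 44 were higher (36.1%) and 2 lower, with a median log2 change of 0.23, against 10.3% higher and a median of 0.01 over all genes tested. In 107 of the 122 the log2 change was above 0. At 0 h the median of the list was 0.07, and the effect at 2 h was above that at 0 h in 17 genes and below it in 3 by the test of the difference. Over all probe sets tested for a difference, 5.41% were above and 2.8% below. With 1 probe set per gene, 9.23% of genes differed in either direction. Nop58, a core protein of the particles that methylate ribosomal RNA, had 9.32, 8.78 and 9.13 in hypoxic pools, against 8.43, 8.58 and 8.30 in normoxic pools (log2 change 0.64, SE 0.11, adjusted p = 0.000576). Gar1, of the particles that make pseudouridine, had 9.23, 8.78 and 9.05 in hypoxic pools, against 8.42, 8.22 and 8.49 in normoxic pools (log2 change 0.64, SE 0.12, adjusted p = 0.00157). Rrp15, a factor of the large subunit, had 8.06, 7.99 and 8.20 in hypoxic pools, against 7.45, 7.51 and 7.46 in normoxic pools (log2 change 0.61, SE 0.11, adjusted p = 0.000794). In each of the 3 the hypoxic pools lay above the normoxic pools. The effects of Gar1 and Rrp15 were above those of 0 h, which were -0.01 and 0.08 (adjusted p of the difference 0.0224 and 0.0352), and that of Nop58 was not shown to differ (0.44 at 0 h). Dcaf13 and Lsg1, a late export factor of the large subunit, changed by 0.52 and 0.50 (adjusted p = 0.000813 and 0.000573). The count rests on small changes and depended on single arrays. It was 16 without hypoxic pool 1, 27 without hypoxic pool 3, 27, 23 and 22 without normoxic pools 1, 2 and 3, and 15 from the 6 arrays alone, while the median was also 0.23 when each gene was taken as the average over its probe sets.

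Ribosomal proteins of the cytosol did not stand out in the same way. Of 44 tested, 1 was higher and 0 lower by limma (2 and 0 at an unadjusted p under 0.05), with a median log2 change of 0.02. Ribosomal proteins of the mitochondrion had 27 of 79 higher and 5 lower (34.2% and 6.33%, beside 10.3% and 8.25% over all genes tested). Their median was 0.13, and in 15 of them the effect was above that at 0 h, when the median was -0.04. The share above was 5.41% over all probe sets tested for a difference. Mrps22, of the small subunit, had 10.25, 10.08 and 10.13 in hypoxic pools, against 9.56, 9.59 and 9.49 in normoxic pools (log2 change 0.61, SE 0.09, adjusted p = 0.000257). Mrpl49, of the large subunit, had 11.07, 11.16 and 11.13 in hypoxic pools, against 10.65, 10.66 and 10.64 in normoxic pools (log2 change 0.47, SE 0.09, adjusted p = 0.00129), and its log2 change at 0 h was -0.12 (adjusted p of the difference 0.00474). Mrps25 went the other way, with 8.03, 8.28 and 8.15 in hypoxic pools, against 8.71, 8.88 and 8.62 in normoxic pools (log2 change -0.59, adjusted p = 0.000426). Subunits of the respiratory chain and ATP synthase had 0 of 73 higher and 10 lower (13.7%) by limma. Their median was -0.06, and 3 were higher and 17 lower at an unadjusted p under 0.05. Ndufa1 changed by -0.35 and Ndufb2 by -0.29 (adjusted p = 0.00822 and 0.00946), and Ndufa1 lost the call without hypoxic pool 1 (adjusted p = 0.0583) and Ndufb2 without hypoxic pool 3 (adjusted p = 0.0595). Without hypoxic pool 1 the mitochondrial ribosomal proteins had 9 and without normoxic pool 3 had 13 higher members. The respiratory chain then had 3 and 4 lower members, and 6, 4 and 4 without hypoxic pools 2 and 3 and normoxic pool 1, and 0 from the 6 arrays alone.

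Cytosolic aminoacyl-tRNA synthetases, which load amino acids onto their transfer RNAs, had the largest share of higher members among the lists of at least 10 tested genes. Of 21 tested, 10 were higher (47.6%, beside 10.3% over all genes tested) and 0 lower by limma. The numbers were the same at an unadjusted p under 0.05, and the median log2 change was 0.17. Cars, for cysteine, had 9.09, 8.52 and 8.81 in hypoxic pools, against 7.98, 8.07 and 8.13 in normoxic pools (log2 change 0.74, SE 0.16, adjusted p = 0.00333). Tars, for threonine, had 9.57, 9.28 and 9.46 in hypoxic pools, against 8.75, 8.95 and 8.93 in normoxic pools (log2 change 0.56, adjusted p = 0.00265). Gars, for glycine, had 10.89, 10.49 and 10.67 in hypoxic pools, against 10.17, 10.19 and 10.12 in normoxic pools (log2 change 0.53, adjusted p = 0.00375). The groups did not overlap in any of the 3. The effect of Cars was smaller than at 0 h, when it was 1.53 (adjusted p of the difference 0.0318), and the median of the list at 0 h was 0.22. Without hypoxic pool 1, 6 members were higher, and from the 6 arrays alone 3. These genes are known targets of Atf4, the transcription factor of the integrated stress response. The letters TGATGNAA of the element bound by Atf4 and its C/EBP partners were searched on both strands of the 250 bases before the start. They occurred in 3 of 6 higher synthetase genes with an entry, in 0 of 8 uncalled ones and in 2.31% of all tested genes. These small counts carry no test, and a part of Atf4 in the rise was not tested.

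Amino acid carriers and polyamine enzymes were also among the risers. Slc7a1, the carrier of arginine and other cationic amino acids, had 10.31, 9.19 and 9.85 in hypoxic pools, against 8.42, 8.17 and 8.22 in normoxic pools (log2 change 1.51, SE 0.17, adjusted p = 8.05e-06). Slc3a2, the heavy chain of large neutral amino acid carriers, had 11.73, 11.74 and 11.67 in hypoxic pools, against 11.26, 11.30 and 11.16 in normoxic pools (log2 change 0.48, adjusted p = 0.00122). Its light chain Slc7a5 had 9.71, 9.11 and 9.31 in hypoxic pools, against 8.87, 8.67 and 8.59 in normoxic pools. The log2 change of Slc7a5 was 0.67 (adjusted p = 0.0117), and the call was lost without hypoxic pool 1 (0.50, adjusted p = 0.0872) and without normoxic pool 3 (adjusted p = 0.0526). Slc7a6, another carrier of cationic amino acids, changed by -0.49 (adjusted p = 0.00196). Of 22 tested genes of amino acid transport and the integrated stress response, 4 were higher and 2 lower (18.2% and 9.09%). Over all genes tested the shares were 10.3% and 8.25%. The median of the list was 0.08 at 2 h and 0.51 at 0 h over the same genes. The number higher was 2 without hypoxic pool 1 or normoxic pool 3, and the number lower was 1 without hypoxic pool 2 or normoxic pool 3. Odc1, which makes the polyamine putrescine, had 11.58, 11.26 and 11.40 in hypoxic pools, against 10.89, 10.70 and 10.71 in normoxic pools (log2 change 0.65, SE 0.11, adjusted p = 0.000429). Of 17 genes of serine, one-carbon and polyamine metabolism 5 were higher and 1 lower (29.4% and 5.88%). Their median was -0.04, and 3 were higher without hypoxic pool 2 or normoxic pool 1. Among them, Smox, which oxidizes the polyamine spermine, changed by 0.61 (adjusted p = 0.00415). Of the 8 tested genes of the Myc family and its partners 0 were called by limma (2 were higher at an unadjusted p under 0.05).

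**Figure D1:**
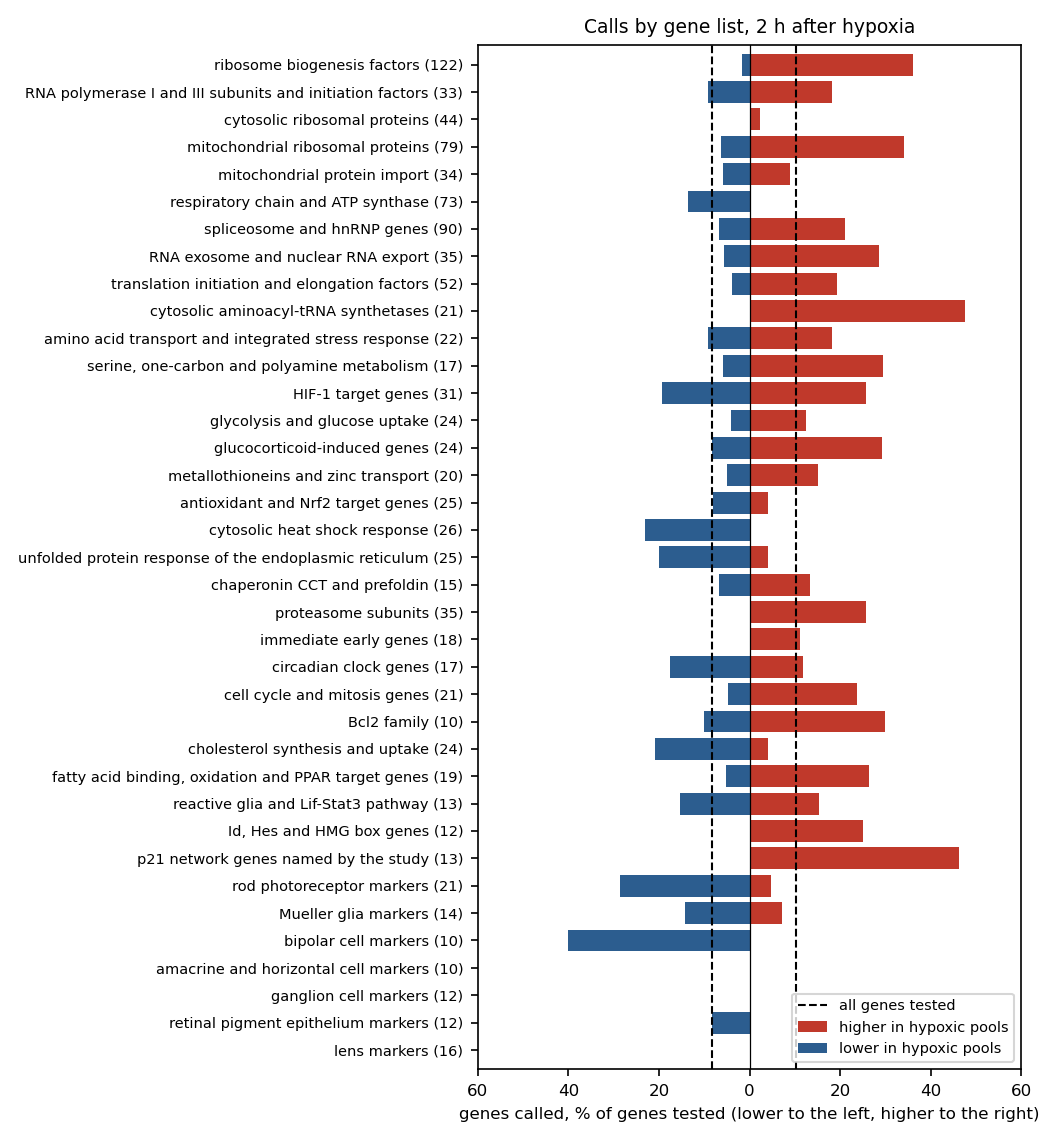
Percent of tested genes called at 2 h in each list with at least 10 tested genes (number in brackets), 1 probe set per gene, with genes higher in hypoxic pools drawn to the right in red and genes lower in them drawn to the left in blue. Dashed lines mark the share over all genes tested, 10.3% higher and 8.25% lower. The synthetase list reached 47.6% higher, ribosome biogenesis factors 36.1% and bipolar cell markers 40% lower.

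RNA processing and protein breakdown followed with smaller shares. Of 90 tested spliceosome and hnRNP genes 19 were higher and 6 lower (21.1% and 6.67%, beside 10.3% and 8.25% over all genes tested). Their median log2 change was 0.10. Xab2, a splicing factor that also acts in DNA repair, had 9.78, 9.66 and 9.81 in hypoxic pools, against 9.08, 9.26 and 9.09 in normoxic pools (log2 change 0.61, SE 0.10, adjusted p = 0.000377). Crnkl1, a core protein of the active spliceosome, had 9.31, 9.19 and 9.23 in hypoxic pools, against 8.68, 8.76 and 8.92 in normoxic pools (log2 change 0.46, adjusted p = 0.00502). Crnkl1 had been lower at 0 h, at -0.47, and the difference passed the test (adjusted p = 0.000391). Hnrnpr went down, with 10.14, 10.22 and 10.12 in hypoxic pools, against 10.65, 10.53 and 10.85 in normoxic pools (log2 change -0.52, adjusted p = 0.0021). Of 35 genes of the RNA exosome and nuclear RNA export 10 were higher and 2 lower (28.6% and 5.71%). Among 52 translation factors 10 were higher and 2 lower (19.2% and 3.85%). Of 35 proteasome subunits 9 were higher (25.7%) and 0 lower by limma (11 and 1 at an unadjusted p under 0.05), with a median of 0.09. Psmd9 had 8.79, 8.67 and 8.59 in hypoxic pools, against 8.33, 8.21 and 8.23 in normoxic pools (log2 change 0.43, adjusted p = 0.000842), and Psmd6 changed by 0.37 (adjusted p = 0.00156). Leaving out hypoxic pool 1 lowered the numbers of higher members to 11 for the spliceosome, 6 for the exosome and export, 3 for the translation factors and 4 for the proteasome. Leaving out normoxic pool 2 gave 12, 6, 10 and 6, without hypoxic pool 3 the exosome and export genes had 6, and without normoxic pool 3 the translation factors had 4.

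Targets of HIF-1 split into genes still higher and genes now lower than in normoxic retinas. Of 31 tested, 8 were higher and 6 lower (25.8% and 19.4%, beside 10.3% and 8.25% over all genes tested). The median log2 change of these targets was 0.04. At 0 h the same genes had a median of 0.82, 29 of 31 had a log2 change above 0 and 26 were called higher. Of these 26, 8 were higher at 2 h, 4 were lower and 14 were not called. In 19 of the 31 the effect at 2 h was below that at 0 h by the test of the difference, and in 0 it was above. Over all probe sets tested for a difference, 2.8% were below and 5.41% above. The number higher was 5 without normoxic pool 1, and the number lower was 4 without hypoxic pool 2 or replicate 3 and 3 without normoxic pool 3, but 7 without normoxic pool 1. From the 6 arrays alone it was 5 higher and 3 lower.

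Several genes of the mitochondrion were among the targets that were still higher. Bnip3, which marks mitochondria for removal, had 12.36, 12.22 and 12.16 in hypoxic pools, against 11.38, 11.57 and 11.70 in normoxic pools (log2 change 0.70, SE 0.10, adjusted p = 0.000182). Fam162a, a mitochondrial protein of hypoxic cell death, had 10.78, 11.03 and 10.86 in hypoxic pools, against 9.98, 10.13 and 10.40 in normoxic pools (log2 change 0.72, SE 0.16, adjusted p = 0.004). Higd1a, which adjusts the respiratory chain to low oxygen, had 11.29, 11.16 and 11.22 in hypoxic pools, against 10.41, 10.57 and 10.82 in normoxic pools (log2 change 0.62, adjusted p = 0.000285). The hypoxic pools lay above the normoxic pools in all 3. Pdk1, which holds pyruvate back from the mitochondrion, had 8.97, 9.16 and 9.05 in hypoxic pools, against 8.52, 8.53 and 8.57 in normoxic pools (log2 change 0.52, adjusted p = 0.0099). Egln1, an oxygen-sensing prolyl hydroxylase that marks HIF-1 alpha, had 10.94, 10.57 and 10.62 in hypoxic pools, against 10.01, 10.35 and 10.46 in normoxic pools. Its log2 change of 0.44 (adjusted p = 0.0187) was far below the 1.70 of 0 h (adjusted p of the difference 0.000128), and the call was lost without hypoxic pool 1 (0.33, adjusted p = 0.123) and without normoxic pool 1 (adjusted p = 0.113). Among glycolysis genes, 3 of 24 were higher and 1 lower (12.5% and 4.17%, beside 10.3% and 8.25% over all genes tested). Pfkp, a phosphofructokinase and 1 of the 3, had 12.03, 12.18 and 12.08 in hypoxic pools, against 11.27, 11.51 and 11.65 in normoxic pools (log2 change 0.62, adjusted p = 0.00124).

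The targets that were lower at 2 h were Ankrd37, Ddit4, Wsb1, P4ha1, Bhlhe40 and Pfkfb3. Ankrd37, an ankyrin repeat protein, had 8.03, 7.98 and 7.93 in hypoxic pools, against 8.49, 8.57 and 9.01 in normoxic pools (log2 change -0.71, SE 0.11, adjusted p = 0.000281). Bhlhe40, a repressor that also acts in the circadian clock, had 9.14, 9.22 and 9.29 in hypoxic pools, against 9.67, 9.57 and 9.63 in normoxic pools (log2 change -0.41, SE 0.08, adjusted p = 0.00123). P4ha1, a collagen prolyl hydroxylase named after its values were seen, had 8.64, 8.75 and 8.84 in hypoxic pools, against 9.08, 9.42 and 9.22 in normoxic pools (log2 change -0.50, adjusted p = 0.00255). The hypoxic pools of these 3 genes lay wholly below the normoxic ones. The other 3 rested on single arrays. Ddit4, an inhibitor of the growth kinase mTOR, had 9.87, 8.98 and 9.80 in hypoxic pools, against 9.89, 10.26 and 10.76 in normoxic pools (log2 change -0.75, adjusted p = 0.0115). Without hypoxic pool 2 its log2 change was -0.47 (adjusted p = 0.075), and without normoxic pool 3 its adjusted p was 0.086. Wsb1, a ubiquitin ligase subunit, changed by -0.64 (adjusted p = 0.0238) and by -0.41 without normoxic pool 3 (adjusted p = 0.164), and it also lost the call without hypoxic pool 1 or 3. Pfkfb3, which makes the activator of phosphofructokinase, changed by -0.32 (adjusted p = 0.045) and by -0.20 without hypoxic pool 2 (adjusted p = 0.225), and it kept the call with 1 array left out only without hypoxic pool 1. Vegfa, the growth factor of blood vessels, and Slc2a1, the main glucose transporter, had log2 changes of -0.20 and -0.16 at 2 h, which were not called (adjusted p = 0.275 and 0.25), and their effects were below those of 0 h, 0.83 and 0.59 (adjusted p of the difference 0.000625 and 0.000871). Adm, the vasodilator peptide adrenomedullin, had 5.30, 5.58 and 5.65 in hypoxic pools, against 5.72, 5.38 and 5.44 in normoxic pools, below the threshold in both groups. This probe set is of a type (_x_at) whose probes can match other transcripts, and the study listed another probe set of Adm. By real-time PCR the study still found Adm higher after hypoxia at 2 h, so these low signals do not settle whether Adm was changed.

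The stretches before the starts of Bnip3, still higher, and Ankrd37, now lower, are shown side by side. They lie at chr7:138909507-138909756 and chr8:45999851-46000100 on the minus strand (RefSeq, GRCm38.p6), and capitals mark ACGTG, the core bound by HIF-1, on either strand.
Bnip3: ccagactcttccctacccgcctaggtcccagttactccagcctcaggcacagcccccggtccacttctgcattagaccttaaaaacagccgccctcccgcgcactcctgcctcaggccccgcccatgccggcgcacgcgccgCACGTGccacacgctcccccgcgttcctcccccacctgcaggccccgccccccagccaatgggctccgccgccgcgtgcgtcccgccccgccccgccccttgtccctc
Ankrd37: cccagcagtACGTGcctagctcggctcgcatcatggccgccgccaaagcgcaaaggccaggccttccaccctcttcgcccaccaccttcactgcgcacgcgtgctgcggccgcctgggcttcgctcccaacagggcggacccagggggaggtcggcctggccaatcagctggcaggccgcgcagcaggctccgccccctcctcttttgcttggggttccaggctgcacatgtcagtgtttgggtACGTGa
In Bnip3 the core stood on both strands in overlapping form, together CACGTG, with its first base 108 bases before the start, and Ankrd37 held 2 separate cores, 241 and 6 bases before the start. The core occurred in 16.6% of all promoter stretches, in 26.2% of those of the tested genes and in 20 of the 26 tested HIF-1 targets with an entry. It occurred in 3 of 7 targets that were higher, in 5 of 5 that were lower and in 12 of 14 that were not called, counts that carry no test. Sites farther from the start were not searched.

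**Figure D2:**
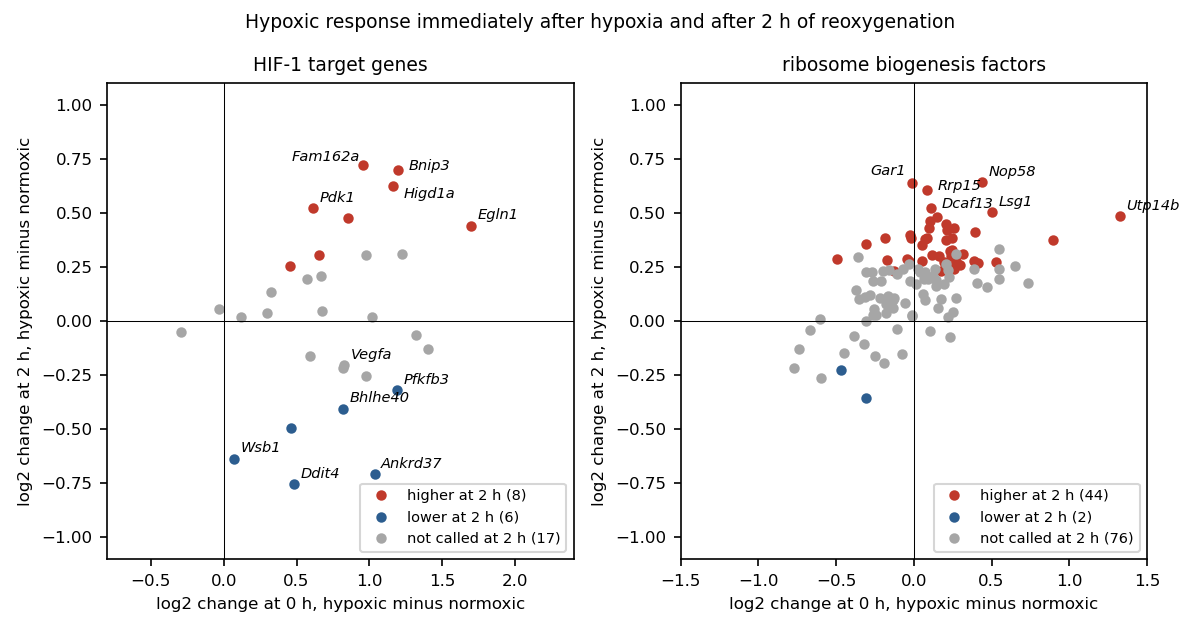
Log2 change (hypoxic minus normoxic) of each tested gene of 2 lists, with the effect at 0 h on the x axis and that at 2 h on the y axis. Red points are genes called higher, blue points genes called lower and gray points genes not called at 2 h. HIF-1 targets lie mostly to the right of 0, with 8 higher and 6 lower at 2 h, while 107 of 122 ribosome biogenesis factors lie above 0 at 2 h.

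For a small part of the probe sets, the response at 2 h was not only a smaller copy of that at 0 h. The effect of hypoxia differed between the time points in 1568 of 19098 probe sets tested at either (8.21%), and in 1313 of these it was smaller in size at 2 h. It was above that of 0 h in 1033 (5.41%) and below it in 535 (2.8%). Of the probe sets called at 2 h, 375 differed from 0 h, and for 2706 no difference was shown. In 221 of the 375 the effect was larger in size at 2 h, 169 higher and 52 lower. Starting from calls at 2 h favours effects that are large at 2 h, so this split has no weight of its own. Both time points have their own normoxic pools and share none. The lists of lens and pigment epithelium markers had median log2 changes of -0.28 and 0.67 at 2 h and of 1.61 and 1.47 at 0 h, and the part of these tissues in the differences between the time points was not tested. In 80 probe sets the calls had opposite directions, 69 of them lower at 0 h and higher at 2 h, and 11 higher at 0 h and lower at 2 h. Dmac1, an assembly factor of respiratory complex I, was of the first kind, with 10.18, 10.16 and 10.06 in hypoxic pools, against 9.82, 9.67 and 9.67 in normoxic pools at 2 h. Its log2 change was 0.41 at 2 h (adjusted p = 0.00145) and -0.51 at 0 h (adjusted p of the difference 3.03e-05). Suv39h2, a histone methyltransferase of heterochromatin, changed by 0.36 at 2 h (adjusted p = 0.033) and by -0.96 at 0 h (adjusted p of the difference 3.43e-05), and its call at 2 h was lost without each array in turn except hypoxic pool 2 (adjusted p 0.0511 to 0.155). Of the second kind, besides Ankrd37, Bhlhe40, P4ha1 and Pfkfb3, was Errfi1, an inhibitor of the epidermal growth factor receptor. Errfi1 changed by -0.32 at 2 h (adjusted p = 0.0103, and 0.0536 without normoxic pool 3) and by 0.70 at 0 h (adjusted p of the difference 1.97e-05).

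Several strong effects of 0 h were not called at 2 h. Ciao1, which matures iron-sulfur proteins, had a log2 change of -0.03 at 2 h and -1.43 at 0 h, and Irf3, a factor of the interferon response, 0.07 at 2 h and -1.88 at 0 h (adjusted p of the difference 5.61e-06 and 1.97e-05). Bcar1, an adaptor of cell adhesion, had -0.19 at 2 h and 1.20 at 0 h, and Arrdc3, an arrestin of receptor uptake, -0.24 at 2 h and 1.43 at 0 h (adjusted p of the difference 1.31e-06 and 2.05e-06). A further set held the genes chosen for real-time PCR. Of those matched on the array, 10 were called higher, 1 (Mef2c) was lower, 11 were not called and 5 were below the threshold. The higher ones were Mt1, Kif4, Fabp4, Cdkn1a, Cebpd, Hmgb2, Stom, Timp3, Dido1 and Egln1. The set was chosen on these same retinas, so its direction is no independent evidence. Stom, a protein of membrane rafts, had 10.75, 10.32 and 10.64 in hypoxic pools, against 9.97, 9.84 and 9.75 in normoxic pools (log2 change 0.72, SE 0.11, adjusted p = 0.000163). Timp3, an inhibitor of matrix proteases, changed by 0.47 (adjusted p = 0.0341), and by 0.21 without normoxic pool 3 (adjusted p = 0.247), and it also lost the call without each hypoxic array in turn. Dido1 changed by 0.49 and lost its call without hypoxic pool 1 (adjusted p = 0.0884) and without normoxic pool 2 (adjusted p = 0.0603).

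**Figure D3:**
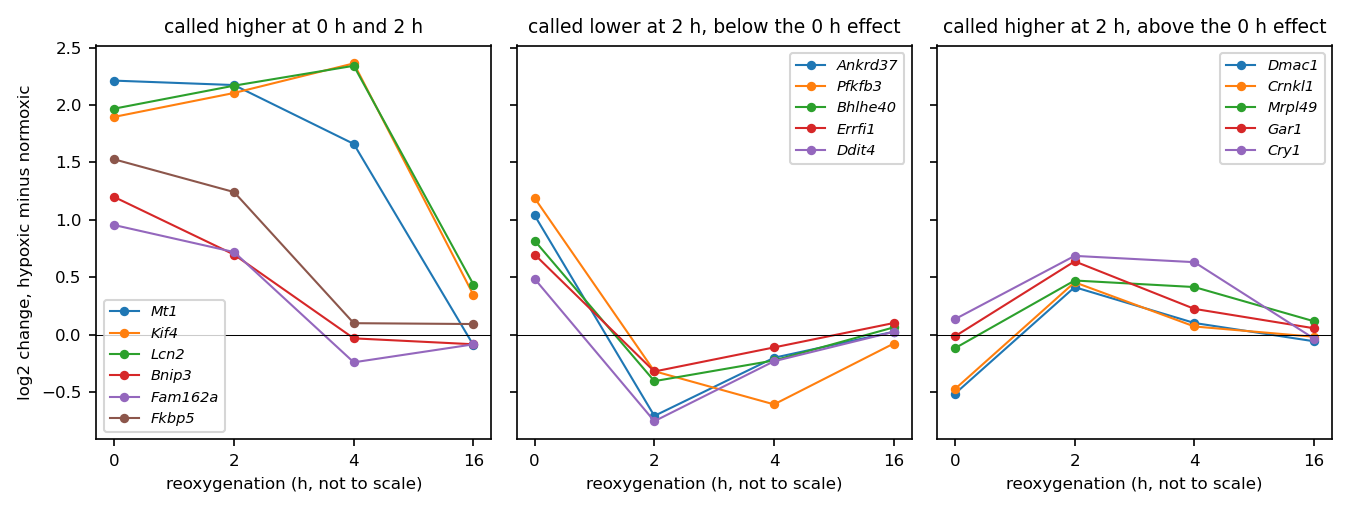
Log2 change (hypoxic minus normoxic) of 16 genes at 0, 2, 4 and 16 h of reoxygenation, each against the normoxic pools of its own time point, with the time axis not to scale. The left panel holds genes called higher at 0 h and 2 h, the middle panel genes called lower at 2 h with an effect below that of 0 h, and the right panel genes called higher at 2 h with an effect above that of 0 h. Mt1, Kif4 and Lcn2 lay near 2 at both 0 h and 2 h, and Ankrd37 stood at 1.04 at 0 h and at -0.71 at 2 h.

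Of 17 tested clock genes 2 were higher and 3 lower (11.8% and 17.6%, beside 10.3% and 8.25% over all genes tested), and the number lower was 1 without hypoxic pool 2 or normoxic pool 3. Cry1, a repressor of the clock loop, had 9.90, 9.77 and 10.17 in hypoxic pools, against 9.24, 9.05 and 9.49 in normoxic pools (log2 change 0.69, SE 0.12, adjusted p = 0.00066), and its effect was above the 0.13 of 0 h (adjusted p of the difference 0.0461). Arntl, an activator of the loop, had 10.38, 9.92 and 10.24 in hypoxic pools, against 9.66, 9.74 and 9.81 in normoxic pools (log2 change 0.44, adjusted p = 0.00479). Both groups were taken at the same time point. Besides Bhlhe40, the genes that fell were Dbp with -0.23 and Rorb with -0.48, and Rorb changed by -0.25 without hypoxic pool 2 (adjusted p = 0.236). Dbp kept its call with 1 array left out only without normoxic pool 2, and Rorb also lost it without normoxic pool 2 or 3.

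Several markers of rods and bipolar cells were lower by small amounts, beside 8.25% lower over all genes tested. In whole retina, fewer cells of a type and less RNA per cell cannot be told apart. Of 21 tested rod markers 6 were lower and 1 higher, with a median log2 change of -0.16, and the number lower was 5 or 6 when 1 array was left out and 3 from the 6 arrays alone. Impg1, a proteoglycan of the matrix between photoreceptors, had 8.95, 9.04 and 8.91 in hypoxic pools, against 9.57, 9.86 and 9.81 in normoxic pools (log2 change -0.78, SE 0.11, adjusted p = 8.73e-05). Rcvrn, the calcium sensor recoverin of phototransduction, had 12.75, 12.86 and 12.89 in hypoxic pools, against 13.39, 13.43 and 13.49 in normoxic pools (log2 change -0.60, SE 0.08, adjusted p = 5.12e-05). Gngt1, the gamma subunit of rod transducin, had 12.43, 12.51 and 12.51 in hypoxic pools, against 12.85, 12.81 and 12.99 in normoxic pools (log2 change -0.40, adjusted p = 0.00319). All hypoxic pools lay below all normoxic pools in these 3. The rod marker that was higher was Samd7, a polycomb protein of rods, at 0.53 (adjusted p = 0.0132), and its call was lost without hypoxic pool 1 (adjusted p = 0.0977) and without normoxic pool 1 (adjusted p = 0.0849). A second probe set of Samd7 was not called, at -0.09. Of 10 bipolar markers 4 were lower and 0 higher by limma (the same numbers at an unadjusted p under 0.05), with a median of -0.17. Among the lower ones, Cabp5, a calcium-binding protein of bipolar cells, had 11.04, 11.23 and 10.92 in hypoxic pools, against 11.66, 11.57 and 11.62 in normoxic pools (log2 change -0.55, SE 0.09, adjusted p = 0.00044). The number of lower bipolar markers was 2 without hypoxic pool 1, without hypoxic pool 3 or without normoxic pool 2. Of 9 tested cone markers 2 were lower and 0 higher by limma (2 and 2 at an unadjusted p under 0.05), with a median of -0.11 and 4 of 9 above 0, and 1 was lower when hypoxic pool 3 or any normoxic pool was left out. The 2 were Pde6h, a subunit of the cone phosphodiesterase, at -0.29 (adjusted p = 0.00851), and Cngb3, of the cone channel, at -0.35 (adjusted p = 0.038). The 1 that lost its call was Cngb3, at -0.21 without hypoxic pool 3 (adjusted p = 0.237).

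The mean log2 signal of the rod list was 12.33 to 12.43 in the hypoxic pools, against 12.50 to 12.62 in the normoxic pools, and that of the bipolar list 10.15 to 10.26 in the hypoxic pools, against 10.33 to 10.41 in normoxic pools. That of the cone list was 9.33 to 9.41 in hypoxic pools, against 9.38 to 9.46 in normoxic pools, and overlapped. All 21 rod markers tested were above the threshold in every pool. Of the 10 tested amacrine and horizontal cell markers 0 were called by limma (0 at an unadjusted p under 0.05), and of the 12 tested ganglion cell markers likewise 0 (2 higher and 1 lower at an unadjusted p under 0.05). Ranges of the lists of Mueller glia (10.82 to 10.96 in hypoxic pools, against 10.76 to 10.96 in normoxic pools) overlapped.

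Marker signals of tissue around the retina varied between pools, and the amounts of such tissue were not measured. The mean over the markers of the retinal pigment epithelium was 7.32 to 8.02 in hypoxic pools, against 6.85 to 7.64 in normoxic pools, with 11 to 13 of its 19 markers above the threshold in a hypoxic pool and 8 to 12 in a normoxic pool. That of lens markers was 11.67 to 12.19 in hypoxic pools, against 12.00 to 12.27 in normoxic pools. The ranges overlapped in both lists. Of 12 tested pigment epithelium markers 0 were higher by limma (5 at an unadjusted p under 0.05) and 1, Mitf with -0.51, was lower, although 4 were higher without hypoxic pool 3 or without normoxic pool 2. The median log2 change of that list was 0.67. Mitf lost its call without hypoxic pool 1, without hypoxic pool 3 and without normoxic pool 2 (adjusted p = 0.0608). Of 16 lens markers 0 were called by limma (0 at an unadjusted p under 0.05), and all 16 had a log2 change below 0. Ttr, a thyroid hormone carrier of the pigment epithelium, had 10.99, 11.63 and 10.30 in hypoxic pools, against 9.03, 10.68 and 9.86 in normoxic pools, and its log2 change of 1.12 was not called (adjusted p = 0.138). Of 5 tested microglia and macrophage markers H2-Ab1 was higher, an antigen-presenting molecule with 7.82, 7.93 and 7.82 in hypoxic pools, against 7.19, 7.05 and 6.99 in normoxic pools (log2 change 0.78, adjusted p = 0.000158). Of 8 fibroblast markers Mgp was higher, a matrix protein with 7.70, 7.89 and 7.63 in hypoxic pools, against 7.02, 6.76 and 6.83 in normoxic pools (log2 change 0.87, adjusted p = 0.000188). In 6 of these 8 fibroblast markers the log2 change was below 0, with a lowest value of -0.84 and a median of -0.11. The share of these tissues in the changes of other genes was not tested.

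**Figure D4:**
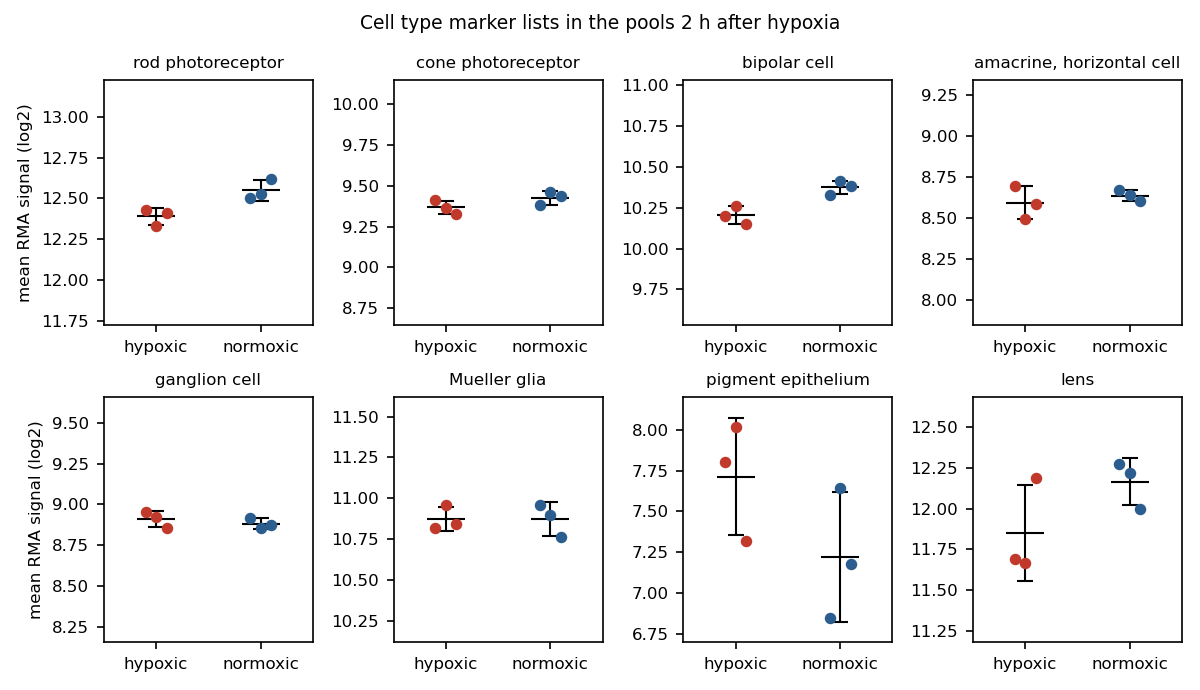
Mean RMA signal (log2) over the markers of 8 cell type lists in each pool at 2 h. Red points are hypoxic and blue points normoxic pools, and bars show the mean and SD (n = 3 pools each). Hypoxic pools lay below normoxic pools in the rod and bipolar lists, at 12.33 to 12.43 and 10.15 to 10.26, and overlapped with them in the pigment epithelium and lens lists. Every panel spans the same range, and the axes do not start at 0.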

How the data were processed

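RNA of pooled whole retinas was hybridised to Affymetrix whole-genome mouse arrays. The authors deposited log2 values of each probe set, made by RMA (background correction, quantile normalization and summary of the probes), with no version given in the sources used here. RMA makes the arrays alike in distribution, so a shift shared by all genes cannot be seen, and the number of arrays limits the precision. The lists of the study rested on another normalization and were not used. Groups came from the sample titles.

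The log2 values were fitted with limma 3.58.1 (R 4.3.3) as 8 group means over 24 arrays (16 residual degrees of freedom), with moderated variances and Benjamini-Hochberg adjustment over all probe sets tested. Using all arrays assumes that the groups share 1 spread. Following the methods, a probe set was tested when the mean of either group reached the signal threshold. The difference between 2 h and 0 h was tested in the same fit. Of 45037 probe sets, 34945 were annotated with 1 gene symbol, 932 with several and 9160 with none in the platform table, and a gene was represented by its 1-symbol probe set with the highest mean over 24 arrays. The text draws on the 15 largest rises and 15 largest falls without overlap of pools, up to 6 called genes of each list, the genes of the study's real-time PCR and the 10 clearest differences from 0 h in each direction, besides genes marked as named later. The comparison and the gene lists were chosen with earlier results of these data known. Promoter stretches were taken from RefSeq (GRCm38.p6). Alternatives were other filters, normalizations, variance models, a replicate block, the methods' t-test, the 6 arrays alone and leaving out each array.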

Additional observations from a re-analysis of the deposited data

Results flagged for a closer look

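Genes named in the text were marked where limma found a different effect of hypoxia at 2 h than at 0 h (adjusted p under 0.05). Each value in brackets is the log2 change at 2 h minus the log2 change at 0 h, where each is hypoxic minus normoxic and has its own normoxic pools. Such a mark was met by 8.21% of all probe sets tested, and the causes of the differences were not tested.

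Among HIF-1 targets and genes of glucose uptake, the effect at 2 h was below that at 0 h in Ankrd37 (-1.75), Pfkfb3 (-1.51), Egln1 (-1.26), Ddit4 (-1.24), Bhlhe40 (-1.22), Vegfa (-1.03), P4ha1 (-0.95), Slc2a1 (-0.75), Higd1a (-0.54), Bnip3 (-0.50) and Adm (-1.79). The probe set of Adm, of the _x_at type, was below the signal threshold in both groups at 2 h.

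It was also below that at 0 h in Cdkn1a (-1.94), Obox6 (-1.49), Arrdc3 (-1.67), Bcar1 (-1.38), Errfi1 (-1.02), Timp3 (-0.84), Cars (-0.79) and Slc37a4 (-0.51). For the 1 probe set of Samd7 that was not called at 2 h, the log2 change was -0.09 at 2 h and 2.71 at 0 h (adjusted p of the difference 8.95e-06), a difference of -2.80. Ttr, a marker of pigment epithelium, had 1.12 at 2 h and 3.75 at 0 h (adjusted p of the difference 0.0246), a difference of -2.63, and the normoxic pools of Ttr at 2 h spread over more than 1 log2 unit.

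The effect at 2 h was above that at 0 h in Dmac1 (0.93), Crnkl1 (0.93), Suv39h2 (1.32), Rrp15 (0.52), Gar1 (0.65), Mrpl49 (0.59), Mtf1 (0.57), Cry1 (0.55) and Mcm4 (0.48), genes that were called higher at 2 h. It was also above in Mef2c (0.70), Hspa1a (0.67) and Chordc1 (0.56), which were lower at both times and less so at 2 h, and in Irf3 (1.96) and Ciao1 (1.40), which were lower at 0 h and not called at 2 h.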

How the results depend on the processing

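For the gene lists, all alternatives other than the 6 arrays alone and the average over the probe sets of a gene were chosen after seeing the data. The changed probe sets numbered 3081 in the analysis of all 24 arrays, and 1628 to 2701 when 1 array of 2 h was left out, with 831 to 1474 higher and 791 to 1227 lower. From the 6 arrays alone they numbered 1325 (696 higher and 629 lower). With the methods' t-test there were 156 after Benjamini-Hochberg adjustment (106 higher, 50 lower, 10 over 2-fold) and 314 at an unadjusted p under 0.001 (205 higher, 109 lower, 17 over 2-fold). At an adjusted p under 0.1, 2376 probe sets differed between 2 h and 0 h. Other settings (no filter, a higher threshold, quantile normalization, median centring, trended spread, array weights, without _x_at and _s_at probe sets) gave 2619 to 3584 changed probe sets. Without 2 outlying normoxic arrays of 0 h and 16 h there were 3305 (1825 higher and 1480 lower), with 42, 26 and 19 higher members of ribosome biogenesis, the mitochondrial ribosome and the spliceosome.

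Higher members, with 1 array left out, were 16 to 36 for ribosome biogenesis, 9 to 23 for mitochondrial ribosomal proteins, 6 to 10 for synthetases, 11 to 17 for the spliceosome, 4 to 7 for the proteasome and 5 to 8 for HIF-1 targets. Lower members were 3 to 7 for HIF-1 targets, 3 to 8 for the respiratory chain and 5 to 6 for rods. From the 6 arrays alone, in that order, they were 15, 6, 3, 4, 3 and 5 higher and 3, 0 and 3 lower. By the methods' t-test with adjustment they were 3, 5, 0, 2, 1 and 0 higher and 0, 1 and 2 lower, and at an unadjusted p under 0.001 they were 6, 6, 0, 4, 1 and 1 higher and 0, 1 and 3 lower. Without the filter on low signal, ribosome biogenesis had 25 higher and the respiratory chain 6 lower members. With a trended and robust spread, the respiratory chain had 16 and rods 10 lower members, and without _x_at and _s_at probe sets the respiratory chain had 5.

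Pools of the same number were not treated as paired. The deviations of hypoxic and normoxic replicates 1, 2 and 3 correlated at -0.09, 0.05 and 0.09. For unlike numbers the correlations ran between -0.14 and 0.14. With 3 pools a group these values cannot tell whether the pools were paired. With a replicate block 2349 probe sets were changed, with 29 higher members of ribosome biogenesis, 15 of the mitochondrial ribosome and 11 of the spliceosome, and 5 lower of the respiratory chain. No named gene changed direction with a call under any setting tried. Precision was limited by 3 pools a group and by signal near background for genes whose mean in 1 group was below the threshold. The causes of these shifts were not tested.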
